A study of Mus musculus with 18 samples.

Results

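The 10 genes described here are the markers and transcription factors most often used to follow epithelial to mesenchymal transition (EMT): the epithelial surface genes Cdh1 and Epcam, the mesenchymal genes Cdh2, Vim and Fn1, and the transcription factors Zeb1, Zeb2, Snai1, Snai2 and Twist1. They were found by gene ID among 55469 gene rows in each of 4 tables of RNA-seq values from mouse prostate, and all 10 had a row. RNA came from the ventral and lateral lobes of the prostate of males on the background that the labels call C56NL/6N. Every animal was heterozygous for TRAMP, a transgene in which the probasin promoter drives SV40 tumour antigens in prostate epithelium and so starts tumours there. WT-TRAMP mice carried wild-type Elac2, which encodes the nuclease that trims the 3′ ends of precursor tRNAs. KO-TRAMP mice were homozygous for an Elac2 deletion made by Pb-Cre, which acts in prostate epithelium and leaves other cells of the lobes undeleted. A537T-TRAMP mice were homozygous for the A537T change of the ELAC2 protein in all cells. Each line was sampled at 10 and at 30 weeks of age with 3 libraries per line and age, 18 in all. The comparisons ask how either form of altered Elac2 changes these genes in a tissue that is already forming tumours.

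In EMT, epithelial cells loosen their junctions and take on the shape, cytoskeleton and motility of mesenchymal cells. Cdh1 encodes E-cadherin, the adhesion molecule of epithelial junctions, and Epcam encodes another epithelial adhesion protein. Cdh2 encodes N-cadherin, Vim the intermediate filament vimentin and Fn1 the matrix protein fibronectin. The zinc-finger proteins of Zeb1, Zeb2, Snai1 and Snai2 repress Cdh1 by binding E-box sequences, and Twist1 is a helix-loop-helix factor of the same network. Vim, Fn1, Zeb1 and Zeb2 are also made by the fibroblasts, endothelial cells and macrophages of the normal stroma. In these bulk samples, fewer cells of a type and less RNA per cell cannot be told apart.

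Promoter windows from RefSeq (GRCm38.p6) ran from 250 bases before to 50 bases after a transcript start. Those of 5 of the 10 genes were used. They were searched for the letters CACCTG and their reverse complement CAGGTG, the core bound by Snail and ZEB zinc fingers, since several of the members act on others through that core. Of all 32851 windows, 20.2% held at least 1 copy on either strand and 2.88% held 2 or more. The Epcam window held 2, the Snai1 window 1, and the windows of Vim, Twist1 and Zeb2 (4 windows) held no such letters. Cdh1, Cdh2, Fn1, Zeb1 and Snai2 were not among the 5 genes used, so no motif count is given for them. Whether the core lies near the start of Cdh1, the gene named above as repressed through E-boxes, was therefore not tested. The windows of Epcam (chr17:87635729-87636028, plus strand) and Vim (chr2:13574061-13574360, plus strand) are shown 5′ to 3′ because they contrast an epithelial member with a mesenchymal member called below. The capitals in the first mark the 2 copies, which begin 187 and 19 bases before the start.
Epcam: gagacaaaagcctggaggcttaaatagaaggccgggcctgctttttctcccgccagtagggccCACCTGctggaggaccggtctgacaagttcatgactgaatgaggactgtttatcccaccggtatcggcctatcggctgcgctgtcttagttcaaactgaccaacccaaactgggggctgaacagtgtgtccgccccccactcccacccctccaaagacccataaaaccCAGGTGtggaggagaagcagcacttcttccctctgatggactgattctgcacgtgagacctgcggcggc
Vim: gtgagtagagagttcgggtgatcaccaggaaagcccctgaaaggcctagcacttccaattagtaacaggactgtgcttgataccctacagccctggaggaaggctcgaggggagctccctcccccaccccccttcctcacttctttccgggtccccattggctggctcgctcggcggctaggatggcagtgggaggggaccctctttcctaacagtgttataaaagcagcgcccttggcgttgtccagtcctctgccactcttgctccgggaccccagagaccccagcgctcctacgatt

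Depth was 9380174 to 14830104 reads per library. The normalised count of the targeted gene Elac2 overlapped between groups at both ages: 254 to 301 in KO-TRAMP against 289 to 359 in WT-TRAMP at 10 weeks, and 249 to 267 against 251 to 320 at 30 weeks. Elac2 was 245 to 306 in A537T-TRAMP and 257 to 320 in WT-TRAMP at 10 weeks, and 258 to 292 against 233 to 295 at 30 weeks. The deletion removes exon 8, whereas these counts cover the whole gene. In mice without TRAMP, the paper's immunoblots of prostate showed ELAC2 protein lost in KO and lowered in A537T. Prostate luminal markers were present in every library, at a summed 787 to 4810 RPM (reads scaled to a common library total). Seminal vesicle secretory genes separated the groups at 10 weeks, with sums of 487, 90508 and 12468 RPM in A537T-TRAMP libraries 4, 5 and 6 and of 9.06, 522 and 16282 in KO-TRAMP libraries 7, 8 and 9, against 1.83 to 4.59 in WT-TRAMP. At 30 weeks they ranged from 1.06 to 54493 RPM and the groups overlapped. Their part in the 10-week values of Cdh1, Epcam, Vim, Fn1, Zeb1 and Zeb2 below was not tested. Libraries are named by the numbers in the table headers. In each 30-week group 1 library often lay between the other 2. Among 262 genes with a mean of at least 100 and a 4-fold or wider range in WT-TRAMP at 30 weeks, library 12 lay between libraries 10 and 11 for 94.7%, and the middle 80 percent of those genes sat 44.5% to 66.6% of the way from 10 to 11. In KO-TRAMP at 30 weeks, library 18 lay between 16 and 17 for 97.8% of 946 such genes, 50.3% to 72.3% of the way. In A537T-TRAMP at 30 weeks, library 15 lay between 13 and 14 for 82.8% of 128 such genes, with a wider spread of 11.8% to 67.2%. The largest such share at 10 weeks was 80.6% of 432 genes, for library 6 of A537T-TRAMP. Whether these libraries share material cannot be told from these files. The 30-week p-values treat the 3 libraries of a group as independent, so the calls for Vim and Fn1 are also given without libraries 12 and 18.

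By the WT-TRAMP means per length, the epithelial members stood highest and Snai1 lowest. Length was the union of all annotated exons of a gene, from 1.62 kb for Snai1 to 19.9 kb for Zeb2. The order of genes with close values therefore depends on the annotation. In WT-TRAMP at 10 weeks, Epcam stood at 290 ± 33.0 and Cdh1 at 136 ± 14.9 RPM per kilobase of annotated exon (mean ± SD, n = 3). Fn1 at 4.72 ± 1.19 and Vim at 3.21 ± 1.11 had overlapping ranges. Within each library Fn1 stood above Vim, at 3.56, 5.94 and 4.67 against 2.59, 4.50 and 2.55. Zeb1 followed at 1.74 ± 0.0938. Zeb2 at 0.695 ± 0.195 and Snai2 at 0.681 ± 0.150 were also neighbours that overlapped, and Twist1 stood at 0.271 ± 0.113. Cdh2 and Snai1 were lowest, at 0.0700 ± 0.0837 and 0.0412 ± 0.0359, with 0 to 14 and 0 to 1 reads per library. At 30 weeks the same scale gave 228 ± 30.2 for Epcam, 124 ± 20.8 for Cdh1, 12.3 ± 1.28 for Fn1, 5.41 ± 0.612 for Vim, 2.91 ± 0.357 for Zeb1 and 2.65 ± 1.52 for Zeb2. Cdh2 then stood at 1.10 ± 1.00, above Snai2 at 0.588 ± 0.159, Twist1 at 0.151 ± 0.0302 and Snai1 at 0.0942 ± 0.0910. That place of Cdh2 rested on libraries 10 and 12, since in library 11 it was at 0.122, below Snai2 at 0.404 and Twist1 at 0.151. The 2 ages come from separately normalised tables and were not tested against each other.

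Vim and Fn1 were the members that rose past the threshold, in KO-TRAMP at 30 weeks, where 2 of 8 tested members were called against a background of 0.213% of 16900 genes. In the other comparisons no member was called by limma. KO-TRAMP at 10 weeks had 0 of 8 (background 0.0129%), A537T-TRAMP at 10 weeks 0 of 7 (background 0.00648%) and A537T-TRAMP at 30 weeks 0 of 8 (background 0%). At an unadjusted p under 0.05 those 3 comparisons had 1, 4 and 2 members, with 6.64%, 7.89% and 7.21% of all genes. There edgeR called 0 members in each and DESeq2 called 0, 1 and 0. Over all genes DESeq2 called 91 of 15451, 196 of 15438 and 166 of 16261. In KO-TRAMP at 30 weeks 2 members had an unadjusted p under 0.05, with 13.5% of all genes. A gene was tested where its mean normalised count was at least 10, which left out Snai1 and Twist1 everywhere and Cdh2 in A537T-TRAMP at 10 weeks. Fold changes are on the log2(normalised count + 1) scale ± the standard error (SE), and each p given after adjustment is from limma, adjusted by the Benjamini-Hochberg method over all genes tested. Groups of libraries did not overlap for 2 of the 8 tested members of KO-TRAMP (12% of all genes) and 3 of 7 of A537T-TRAMP (13.4% of all genes) at the younger age, and for 3 of 8 (20.2%) and 2 of 8 (13.4%) at 30 weeks.

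**Figure D1:**
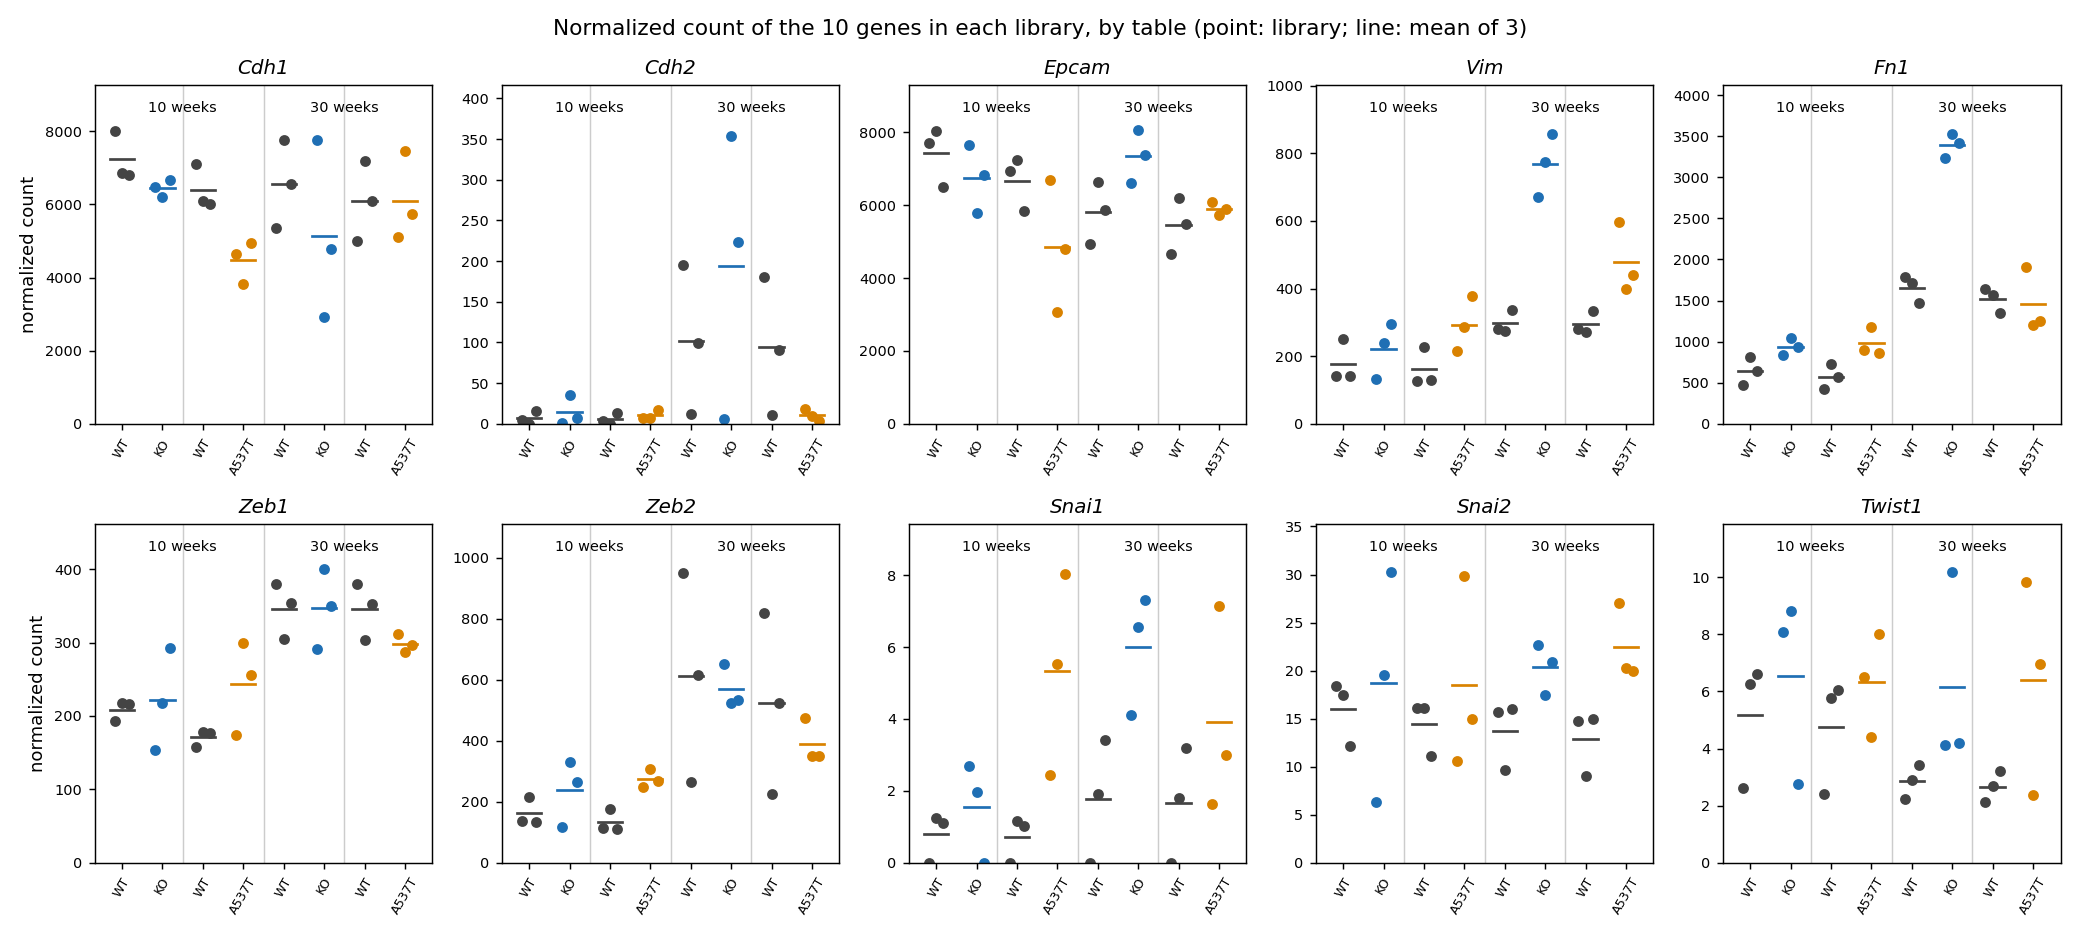
Normalised count of each of the 10 genes (vertical axis, from 0) in each library, with WT-TRAMP, KO-TRAMP and A537T-TRAMP in the 4 tables along the horizontal axis; points are libraries and lines are means of 3. Vim and Fn1 of KO-TRAMP at 30 weeks sit above all WT-TRAMP libraries of their table, while Cdh2 spans 6.17 to 354 within KO-TRAMP at 30 weeks.

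**Figure D2:**
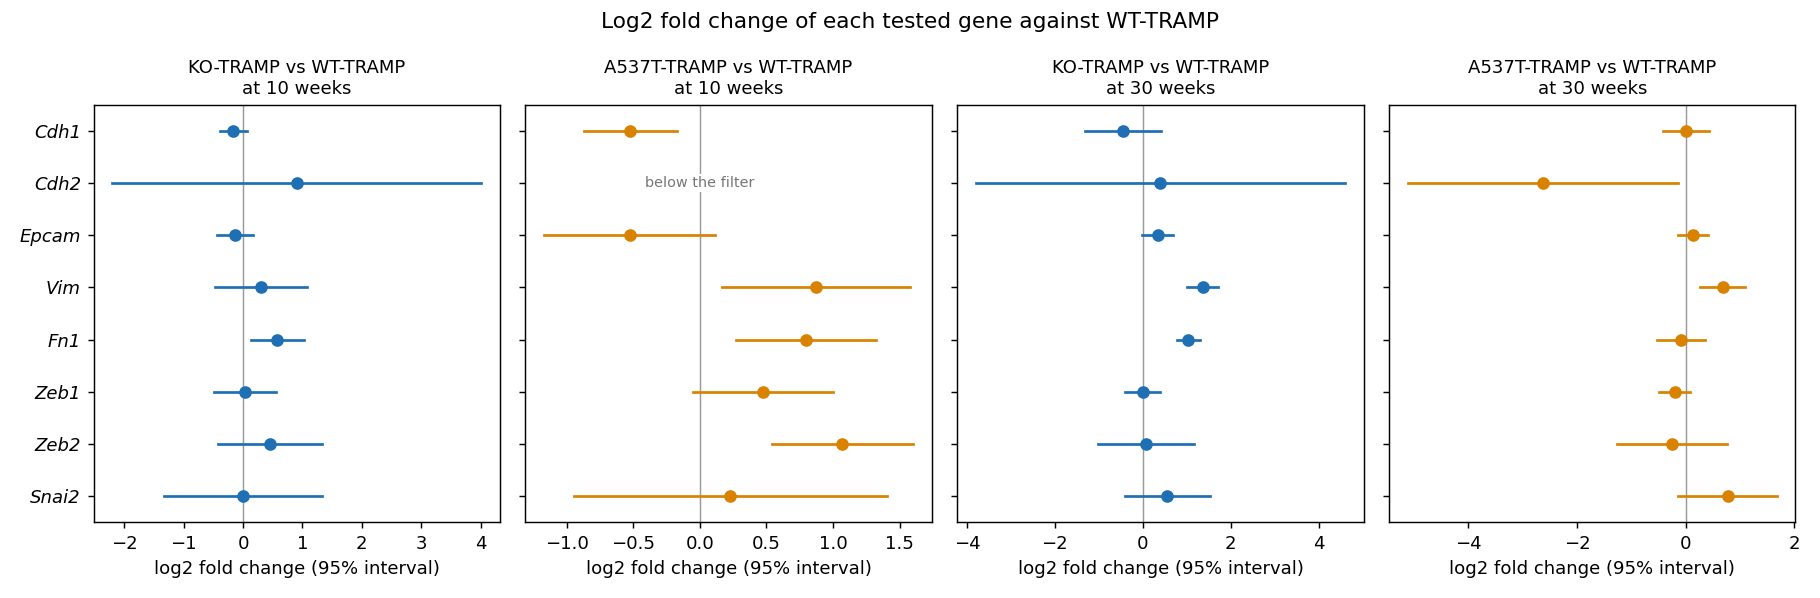
Log2 fold change of each tested gene against WT-TRAMP in the 4 comparisons (points) with its 95% interval from limma (lines), each panel on its own horizontal axis. In KO-TRAMP at 30 weeks the intervals of Vim (1.01 to 1.72) and Fn1 (0.77 to 1.30) lie above 0, and those of Cdh2 are the widest wherever it was tested.

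Vim (ENSMUSG00000026728.9, chr2:13573927-13582826) had normalised counts of 281, 275 and 336 in the WT-TRAMP libraries at 30 weeks and of 670, 776 and 858 in KO-TRAMP. All 3 KO-TRAMP libraries were above all 3 of WT-TRAMP, with means of 768 ± 94.5 and 298 ± 33.7. The log2 fold change was 1.36 (± 0.15 SE, p 0.0415 after adjustment). In A537T-TRAMP of that age Vim was at 596, 398 and 441 against 280, 273 and 333 for WT-TRAMP in the same table. These groups also did not overlap, and the log2 fold change was 0.68 (± 0.17 SE, p 0.523 after adjustment), with a 95% interval of 0.27 to 1.09 before adjustment. At 10 weeks Vim was at 132, 238 and 296 in KO-TRAMP against 141, 250 and 142, which overlap. In A537T-TRAMP at 10 weeks it was at 214, 285 and 378 against 128, 227 and 128, so library 4 lay below WT-TRAMP library 2. The log2 fold changes at 10 weeks were 0.30 (± 0.33 SE, p 0.899 after adjustment) in KO-TRAMP and 0.87 (± 0.30 SE, p 0.600 after adjustment) in A537T-TRAMP. The latter was 0.46 without libraries 5 and 6, when only library 4 of that line was left.

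Fn1 (ENSMUSG00000026193.15, chr1:71585520-71653200) was at 1787, 1714 and 1475 in WT-TRAMP and 3237, 3527 and 3412 in KO-TRAMP at 30 weeks. The KO-TRAMP libraries were close together and all above WT-TRAMP, at 3392 ± 146 against 1659 ± 163. The log2 fold change was 1.04 (± 0.11 SE, p 0.0415 after adjustment). In A537T-TRAMP at 30 weeks Fn1 was at 1906, 1206 and 1250 against 1645, 1567 and 1348, with library 13 above and libraries 14 and 15 below every WT-TRAMP library. That log2 fold change was -0.09 (± 0.19 SE, p 0.938 after adjustment). At 10 weeks both lines were above WT-TRAMP without overlap. KO-TRAMP had 835, 1048 and 933 against 476, 814 and 641, a log2 fold change of 0.57 (± 0.19 SE, p 0.716 after adjustment). A537T-TRAMP had 903, 1174 and 859 against 423, 724 and 567, a log2 fold change of 0.80 (± 0.22 SE, p 0.600 after adjustment).

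The calls for Vim and Fn1 in KO-TRAMP at 30 weeks kept their direction in all 15 alternatives but passed the threshold in 7 of them. Without library 10, 11, 12, 17 or 18 in turn neither gene was called, with 0 of 8 members called each time, and edgeR gave both an adjusted p of 0.0508. Without the middle libraries 12 and 18, the log2 fold changes were 1.37 for Vim and 0.95 for Fn1 (limma adjusted p 0.986 for both). Library 12 itself was above libraries 10 and 11 in Vim and below them in Fn1.

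Cdh1 (ENSMUSG00000000303.12, chr8:106603351-106670246) was lower without overlap in both lines at 10 weeks, and neither value passed the threshold. KO-TRAMP had 6463, 6195 and 6662 against 8017, 6861 and 6805, a log2 fold change of -0.16 (± 0.10 SE, p 0.805 after adjustment). A537T-TRAMP had 4636, 3815 and 4946 against 7096, 6082 and 5998, a log2 fold change of -0.52 (± 0.15 SE, p 0.600 after adjustment). At 30 weeks the KO-TRAMP libraries were spread widely, at 7748, 2923 and 4774 against 5367, 7755 and 6562. Libraries 17 and 18 were below every WT-TRAMP library and library 16 was level with the highest. The log2 fold change was -0.45 (± 0.36 SE, p 0.546 after adjustment). It was 0.26 without libraries 17 and 18, when only library 16 of KO-TRAMP was left. In A537T-TRAMP at 30 weeks Cdh1 was at 5104, 7461 and 5746 against 5009, 7182 and 6080, and the 95% interval of the log2 fold change ran from -0.42 to 0.42.

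Epcam (ENSMUSG00000045394.9, chr17:87635979-87651129), whose promoter window with its 2 motif copies is given above, is the other epithelial member. At 30 weeks it was at 6601, 8051 and 7375 in KO-TRAMP against 4936, 6632 and 5863 in WT-TRAMP. Only library 16 of KO-TRAMP lay below a WT-TRAMP library, and the log2 fold change was 0.34 (± 0.15 SE, p 0.374 after adjustment). In A537T-TRAMP at 30 weeks Epcam was at 6090, 5729 and 5902 against 4654, 6205 and 5487, a log2 fold change of 0.13 (± 0.12 SE, p 0.835 after adjustment). At 10 weeks KO-TRAMP had 7648, 5779 and 6824 against 7695, 8044 and 6510. A537T-TRAMP had 6677, 3064 and 4786 against 6925, 7248 and 5834, and library 5, which held 90508 RPM of seminal vesicle transcripts, was the lowest. The log2 fold change there was -0.53 (± 0.27 SE, p 0.600 after adjustment). It was 0.01 without libraries 5 and 6, when only library 4 of A537T-TRAMP was left.

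Ratios within a library do not depend on its scaling. Per length, KO-TRAMP at 30 weeks held 8.34, 25.6 and 17.3 Vim reads for every 100 Cdh1 reads in libraries 16, 17 and 18, against 5.05, 3.42 and 4.94 in WT-TRAMP. All 3 KO-TRAMP ratios were above those of WT-TRAMP. Epcam stood at 178, 574 and 322 reads per length for every 100 of Cdh1 in the same KO-TRAMP libraries and at 192, 178 and 186 in WT-TRAMP. Library 16 was thus at the WT-TRAMP ratio, while libraries 17 and 18 had the lowest Cdh1 and the highest Epcam of their group. In A537T-TRAMP at 10 weeks the Vim ratio was 4.45, 7.21 and 7.38 against 1.74, 3.60 and 2.06. At 30 weeks A537T-TRAMP had 11.3, 5.15 and 7.40 against 5.40, 3.66 and 5.28, which overlap.

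**Figure D3:**
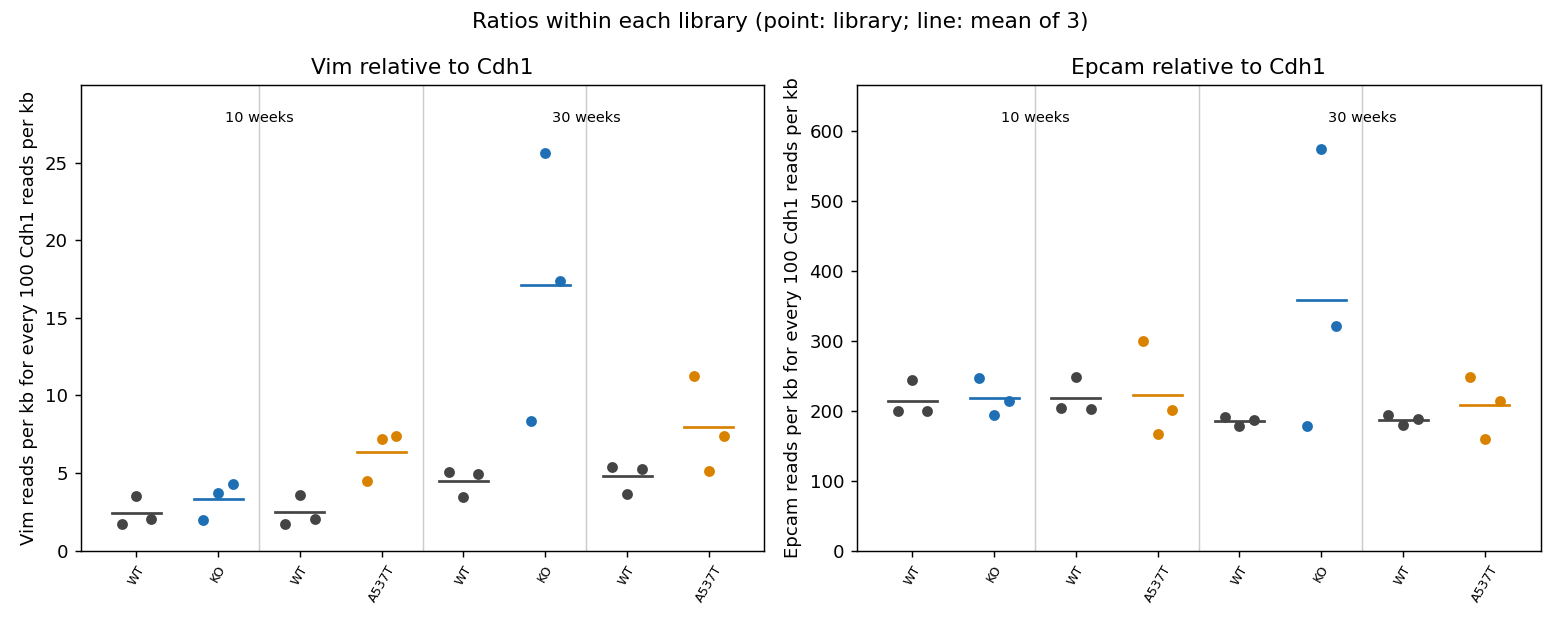
Reads per kilobase of Vim (left) and Epcam (right) for every 100 reads per kilobase of Cdh1 (vertical axes, from 0) in each library of the 4 tables; points are libraries and lines are means of 3. The KO-TRAMP libraries at 30 weeks reach 25.6 for Vim and 574 for Epcam, and their lowest library stands at 8.34 and 178.

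Cdh2 (ENSMUSG00000024304.14, chr18:16588877-16809246, minus strand) separated libraries within groups more than it separated the groups. At 30 weeks it was at 196, 11.5 and 99.2 in WT-TRAMP and at 6.17, 354 and 223 in KO-TRAMP. WT-TRAMP library 11 and KO-TRAMP library 16 were low, and the other 4 libraries were at least 99.2. The log2 fold change was 0.40 (± 1.73 SE, p 0.912 after adjustment). It was -3.13 without libraries 17 and 18, when only library 16 of KO-TRAMP was left. In A537T-TRAMP all 3 libraries were low, at 18.8, 9.54 and 2.99 against 180, 10.8 and 90.7, a log2 fold change of -2.62 (± 1.06 SE, p 0.684 after adjustment). WT-TRAMP library 11 lay inside the A537T-TRAMP range. At 10 weeks Cdh2 was at most 35.3 in any library, with 0.899, 35.3 and 7.35 in KO-TRAMP against 4.37, 0 and 15.4 in WT-TRAMP, and 7.32, 7.74 and 17.2 in A537T-TRAMP.

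The same libraries that were high in Cdh2 at 30 weeks held transcripts of neuroendocrine cells. The 9 neuroendocrine markers, among them the granule protein gene Chga, summed to 141, 0.409 and 66.0 RPM in WT-TRAMP libraries 10, 11 and 12. They summed to 0.445, 1538 and 953 in KO-TRAMP libraries 16, 17 and 18. In A537T-TRAMP they summed to 11.04, 14.1 and 2.17. Up to 6 of the 9 markers were at 0 in a WT-TRAMP library and up to 5 in a KO-TRAMP library. None of the 9 passed the threshold in KO-TRAMP at 30 weeks, where the groups overlapped. Libraries 12 and 18 lay between the others of their groups in Cdh2 and in this sum, as for most variable genes above. Whether they are independent of those libraries cannot be told. The part of neuroendocrine cells in the Cdh2 values was not tested.

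**Figure D4:**
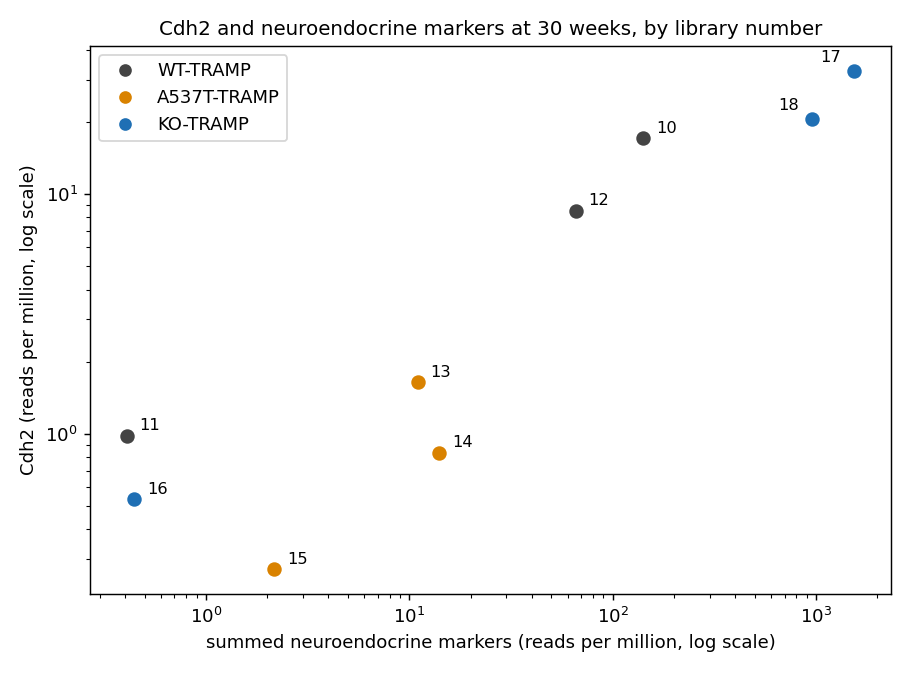
Cdh2 (vertical axis, RPM, log scale) against the sum of 9 neuroendocrine markers (horizontal axis, RPM, log scale) in the 9 libraries at 30 weeks, each point labelled with its library number. Libraries 17 and 18 of KO-TRAMP and 10 and 12 of WT-TRAMP lie at the upper right, with sums from 66.0 to 1538.

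No transcription factor passed the threshold in limma in any comparison between lines. DESeq2 called Zeb2 in A537T-TRAMP at 10 weeks, and limma with array weights, which did not converge, called Zeb1 in A537T-TRAMP at 30 weeks. Zeb1 (ENSMUSG00000024238.15, chr18:5591860-5775467, plus strand) was at 291, 400 and 350 in KO-TRAMP against 379, 305 and 354 in WT-TRAMP at 30 weeks, and its 95% interval ran from -0.41 to 0.40. At 30 weeks in A537T-TRAMP it was at 311, 287 and 296 against 380, 303 and 352, a log2 fold change of -0.20 (± 0.12 SE, p 0.754 after adjustment). At 10 weeks Zeb1 was at 153, 217 and 293 in KO-TRAMP against 192, 217 and 216, and at 174, 300 and 256 in A537T-TRAMP against 157, 178 and 177. The A537T-TRAMP value was 0.47 (± 0.22 SE, p 0.600 after adjustment), and it was 0.31 without library 5. It was 0.03 without libraries 5 and 6, when only library 4 of A537T-TRAMP was left.

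Zeb2 (ENSMUSG00000026872.18, chr2:44983632-45117395 on the minus strand) was at 249, 306 and 267 in A537T-TRAMP against 112, 177 and 109 in WT-TRAMP at 10 weeks. The groups did not overlap, and the log2 fold change was 1.07 (± 0.23 SE, p 0.600 after adjustment), with a 95% interval of 0.54 to 1.60 before adjustment. This gene was the member that DESeq2 called there, with an adjusted p of 0.0195, while over 14 alternatives its adjusted p ran from 0.0195 to 0.997. KO-TRAMP at 10 weeks had 116, 330 and 265 against 136, 215 and 133, which overlap. At 30 weeks WT-TRAMP itself ranged widely, at 950, 265 and 616, and KO-TRAMP at 652, 523 and 535 lay inside that range. A537T-TRAMP was at 474, 348 and 349 against 817, 226 and 525. The log2 fold changes at 30 weeks were 0.08 (± 0.45 SE, p 0.935 after adjustment) in KO-TRAMP and -0.25 (± 0.43 SE, p 0.928 after adjustment) in A537T-TRAMP.

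Snai2 (ENSMUSG00000022676.7, chr16:14705852-14709385), the gene for Slug, had 7 to 33 reads per library. At 30 weeks both lines were above WT-TRAMP without overlap. KO-TRAMP had 22.6, 17.5 and 20.9 against 15.7, 9.60 and 15.96, a log2 fold change of 0.56 (± 0.40 SE, p 0.506 after adjustment). A537T-TRAMP had 27.0, 20.3 and 19.9 against 14.7, 8.97 and 14.9, a log2 fold change of 0.77 (± 0.39 SE, p 0.720 after adjustment). At 10 weeks both lines overlapped WT-TRAMP, with 6.29 to 30.3 in KO-TRAMP and 10.6 to 29.8 in A537T-TRAMP.

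Snai1 (ENSMUSG00000042821.7, chr2:167538195-167542814) and Twist1 (ENSMUSG00000035799.6, chr12:33957671-33959829) were too scarce for the test. Snai1 had 0 to 9 reads per library and Twist1 2 to 14. In A537T-TRAMP at 10 weeks Snai1 was counted in 3, 5 and 7 reads against 0, 1 and 1. In KO-TRAMP at 30 weeks it was seen in 4, 9 and 7 reads against 0, 2 and 3. Both sets of libraries lay above WT-TRAMP as normalised counts, at 2.44 to 8.03 and 4.12 to 7.31. Twist1 was also above WT-TRAMP without overlap in KO-TRAMP at 30 weeks, with 4, 14 and 4 reads against 2, 3 and 3. Where no filter was set, the limma adjusted p was 0.672 for Snai1 in A537T-TRAMP at 10 weeks, and 0.473 for Snai1 and 0.595 for Twist1 in KO-TRAMP at 30 weeks.

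The difference between a line's effect at 30 and at 10 weeks was tested over 12 libraries, and no member passed: 0 of 8 for KO-TRAMP (background 0% of 15252 genes) and 0 of 7 for A537T-TRAMP (background 0% of 15242). In KO-TRAMP, 2 members had an unadjusted p under 0.05, with 13.5% of all genes. Vim had the larger effect at 30 weeks, by 1.07 on the log2 scale (± 0.41 SE, p 0.323 after adjustment), and Epcam differed by 0.48 (± 0.21 SE, p 0.353 after adjustment). In A537T-TRAMP 3 members had an unadjusted p under 0.05, with 6.08% of all genes. Their differences were -0.89 (± 0.31 SE) for Fn1, -0.68 (± 0.26 SE) for Zeb1 and -1.32 (± 0.53 SE) for Zeb2, each with a limma adjusted p of 0.738. Vim in A537T-TRAMP differed by -0.20 (± 0.37 SE, p 0.880 after adjustment).

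Other genes of the EMT programme were counted in 3 lists. Of 20 mesenchymal effector genes, 5 rose and none fell past the threshold in KO-TRAMP at 30 weeks, beside a background of 0.189% of all genes called higher. The list's median log2 fold change was 0.93, against 0.01 over all genes tested. The 3 with the smallest p were Col1a2 (1.77 ± 0.10 SE, p 0.0135 after adjustment), Sparc (1.87 ± 0.13 SE, p 0.0229 after adjustment) and Col3a1 (2.71 ± 0.25 SE, p 0.0401 after adjustment). Col1a2 and Col3a1 encode fibrillar collagen chains and Sparc a collagen-binding matrix protein. The other 2 were Col1a1, a collagen chain, and Mmp2, a matrix protease. Without library 10, 11, 12 or 18 in turn, or without 12 and 18 together, 0 of the 20 passed. Without library 16 the count was 10, beside 3064 of 16950 genes called, and edgeR called 2, beside 15 of 16900. In the other comparisons 0 passed in limma or edgeR. DESeq2 called 2 for KO-TRAMP at 10 weeks, and 4 and 5 for A537T-TRAMP at the younger and older age, all higher. Over all genes DESeq2 called 49 of 15451, 185 of 15438 and 85 of 16261 higher, in the same order. Without library 4 the limma count in A537T-TRAMP at 10 weeks was 1, beside 65 of 15492 genes. Without library 11 that at 30 weeks was 1, beside 145 of 16305 genes. The limma fits gave a median of 0.22 for KO-TRAMP at 10 weeks, 0.66 for A537T-TRAMP at that age (19 tested) and 0.27 for A537T-TRAMP at 30 weeks. Of 33 epithelial junction and identity genes 0 passed in any comparison in limma or edgeR, with a median of -0.08 for KO-TRAMP at 10 weeks and -0.04 at 30 weeks, and of -0.21 and 0.10 for A537T-TRAMP. DESeq2 called 3 of them in KO-TRAMP at 30 weeks, 2 higher and 1 lower, beside 809 of 16900 genes. Without library 16 limma called 6 of them, 3 in each direction, beside 3064 of 16950 genes. Of 11 other EMT transcription factors, 7 or 8 were tested, with medians from -0.08 to 0.19. With all libraries 0 passed in any comparison in limma, edgeR or DESeq2. At 30 weeks 1 passed in limma once library 16 (KO-TRAMP) or 11 (A537T-TRAMP) was left out. Those fits called 3064 of 16950 and 145 of 16305 genes.

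**Figure D5:**
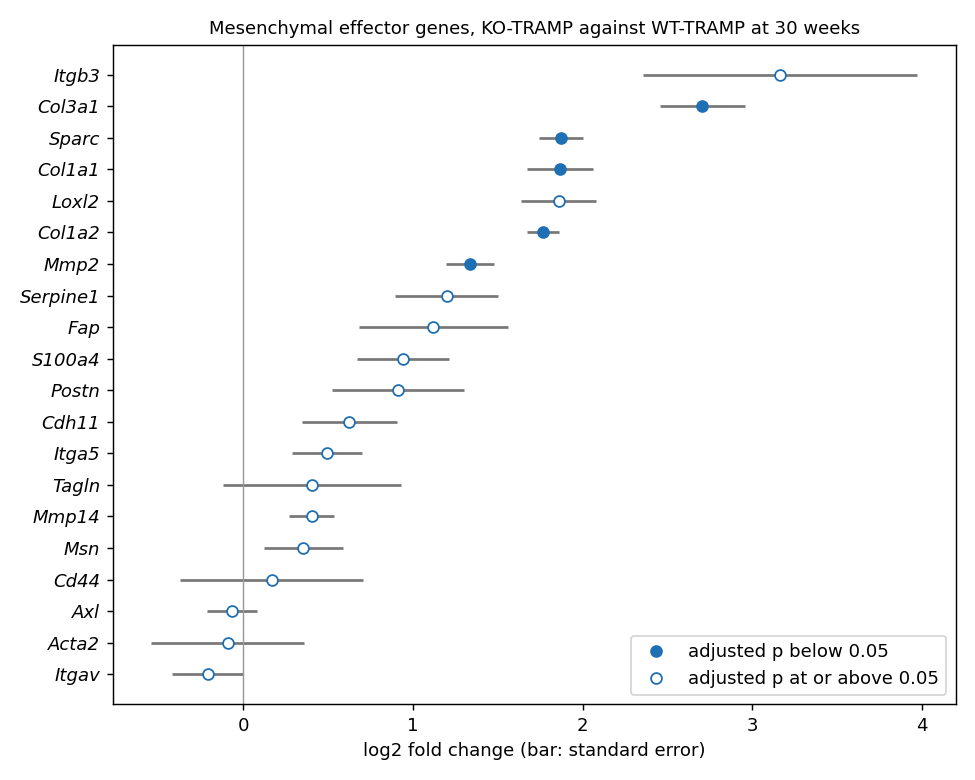
Log2 fold change of the 20 mesenchymal effector genes in KO-TRAMP against WT-TRAMP at 30 weeks (horizontal axis; bars are the standard error from limma), filled where the adjusted p was below 0.05. The 5 filled points are Col3a1, Sparc, Col1a1, Col1a2 and Mmp2, and 17 of the 20 lie above 0.

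Markers of stromal cells were read beside Vim, Fn1 and the matrix genes in KO-TRAMP at 30 weeks, and those of fibroblasts, macrophages and endothelial cells had higher sums in all 3 KO-TRAMP libraries than in any of WT-TRAMP. The 10 fibroblast markers summed to 357 to 665 RPM in KO-TRAMP and 157 to 214 in WT-TRAMP, all 10 had a log2 fold change above 0 (50.9% of all genes did) and 8 did not overlap between the groups (20.2% of all genes did not), with a median of 1.54 and 0 called. The 8 macrophage markers summed to 245 to 278 against 106 to 132 RPM, with a median of 1.02 and 1 called higher (0.189% of all genes were), the complement gene C1qb. The 9 endothelial markers summed to 65.8 to 118 against 42.9 to 46.9, with a median of 0.97 and 0 called. No marker of these 3 lists was at 0 in any of these libraries. Basal markers summed to 225 and 160 RPM in KO-TRAMP libraries 17 and 18 and to 38.9 to 39.8 in library 16 and WT-TRAMP. Smooth muscle markers of KO-TRAMP at 30 weeks lay on both sides of WT-TRAMP, at 504, 2928 and 2034 against 1092 to 2115 RPM, and their median was 0.05. Beside the Fn1 values of KO-TRAMP at 10 weeks, they summed to 585 to 1051 against 310 to 549 RPM without overlap. In A537T-TRAMP fibroblast markers summed to 178 to 190 against 131 to 170 RPM at 10 weeks, with a median of 0.86, and to 172 to 505 against 155 to 211 RPM at 30 weeks, with a median of 0.82. In A537T-TRAMP at 10 weeks smooth muscle markers summed to 767 to 2194 against 299 to 530 RPM and endothelial markers to 27.2 to 54.3 against 15.4 to 22.6. Luminal markers summed to 787 to 1677 in KO-TRAMP against 1571 to 2141 at 30 weeks, lymphocyte markers to 10.6 to 15.04 against 19.7 to 25.3, and Schwann cell markers to 86.5 to 118 against 64.4 to 86.6. Adipocyte markers there summed to 4.36 to 44.8 against 35.7 to 113, with Ucp1 called lower (0.213% of all genes were called in either direction). In A537T-TRAMP at 30 weeks they summed to 2.40 to 9.26 against 35.7 to 112 RPM, with 0 called. The part of cell-type proportions in the values of Vim, Fn1, Zeb1 and Zeb2 was not tested.

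Among 9186 protein-coding genes, those whose within-table profile over the 4 tables of 6 libraries was most like a member's were named by the smallest root mean square difference of centred log2 values. For Cdh1 they were Fzd5, Ptprk and Dap, with differences of 0.08 to 0.10 where the median gene had 0.33. For Vim they were Heg1, C1s1 and Col6a1, with 0.24 to 0.26 against a median of 0.57. For Cdh2 they were Tuba1a, Dpysl2 and Fat3, with 1.00 to 1.23 against a median of 1.82. These are descriptions over shared libraries. Only genes with a mean of at least 100 throughout were compared. Cdh2 itself did not reach that, at 6.60 in WT-TRAMP and 14.5 in KO-TRAMP at 10 weeks, so scarcer genes nearer to it were not sought.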

How the data were processed

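Total RNA from ventral and lateral prostate was sequenced in 18 libraries, 3 per line and age. Per the paper's methods and the submitters' notes, the authors trimmed reads with Trim Galore 0.4.1 and cutadapt 1.18, aligned them with STAR 2.7.3a to GRCm38.p6, estimated stranded gene counts with Salmon and divided them by DESeq2 1.26 size factors. The deposited signal, a normalised count, was scaled separately in each of 4 tables of 6 libraries, so comparisons were made only within a table. Groups came from the table names, since headers give library numbers only; the WT-TRAMP libraries of an age are the columns present in both of its tables. The paper's methods describe RNA from 3 of each line and biological replicates. Their values are not identical in both tables: recovered reads were equal for 30.9% to 37.6% of genes and differed by up to 10.9% for a member (Zeb1). The authors' 4 comparison tables (means, shrunken fold changes, posterior SDs and s-values) were not used.

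Reads were recovered by dividing by the step of 1 read, and all values came out whole within 0.001. These recovered reads are estimated counts rather than raw reads. For library 3 and library 15 in the A537T-TRAMP tables the step was near 1, so their recovery is less certain; both entered the edgeR and DESeq2 alternatives. log2(normalised count + 1) of genes with a mean of at least 10 was fitted with limma 3.58.1 in R 4.3.3 with a mean-variance trend, and p-values were adjusted by the Benjamini-Hochberg method over all genes, two-sided, at 0.05. The difference between ages was fitted over 12 libraries with an intercept per table. Scripts were tested on simulated data. Alternatives were pseudocounts of 0.5 and 5, no filter, TMM scaling, edgeR 4.0.16 and DESeq2 1.42.0 on recovered reads, array weights, leaving out each library and, added after seeing the data, leaving out pairs of libraries. All 10 members were named. From the lists of other EMT genes, those past the threshold were named, at most 3 per direction, list and comparison by smallest p; Col1a1, Mmp2, C1qb and Ucp1 were named after their values were seen. The genes most like Cdh1, Vim and Cdh2 were the 3 nearest protein-coding genes with a mean of at least 100 in every table. The members and lists were chosen with earlier results of these data known. Symbols and coordinates came from GENCODE vM21 on GRCm38.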

Additional observations from a re-analysis of the deposited data

How the results depend on the processing

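The KO-TRAMP comparison at 30 weeks called 2 members (Vim and Fn1) also with both other pseudocounts, no filter, TMM scaling and DESeq2. It called 0 with edgeR and 4 with array weights (Cdh1 lower, and Epcam, Vim and Fn1 higher), a fit that did not converge at 30 weeks and gave library 18 a weight of 170. Leaving out 1 library gave 0 to 2 called members, with 2 only without library 16. The count was 0 without libraries 12 and 18, where fewer samples remained. Of 16900 genes tested that comparison called 36, against 15 with edgeR, 809 with DESeq2 and 10748 with array weights. When a library was left out it called 0 to 3064 genes. A537T-TRAMP at 10 weeks gave 1 member with DESeq2 (Zeb2), beside 196 of 15438 genes. Array weights gave 3 members in A537T-TRAMP at 30 weeks, 3 in the KO-TRAMP age difference and 3 in the A537T-TRAMP age difference. Over all genes the same fits called 3388 of 16261, 4668 of 15252 and 1573 of 15242. Over all genes A537T-TRAMP at 30 weeks called 0 with limma (1173 at an unadjusted p under 0.05) and 0 with edgeR, 166 with DESeq2, 3388 with array weights and 145 without library 11. Vim and Fn1 in KO-TRAMP at 30 weeks, the members called in the reported fits, kept their sign throughout.

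Signs that turned belonged to values not called in the reported fits, and the cause was not tested. Log2 fold changes were -0.0088 for Snai2 in KO-TRAMP at 10 weeks with a pseudocount of 0.5, and 0.0078 for Epcam and -0.40 for Snai2 in A537T-TRAMP at 10 weeks without libraries 5 and 6. In KO-TRAMP at 30 weeks they were 0.26 for Cdh1 and -3.13 for Cdh2 without libraries 17 and 18, and 0.0036, 0.0095 and 0.0046 for Zeb1 with TMM scaling, edgeR and without libraries 12 and 18. For Zeb2 there they were -0.10, -0.11 and -0.13 with edgeR, DESeq2 and array weights. In A537T-TRAMP at 30 weeks Cdh1 gave -0.0056 with TMM scaling, -0.0029 with edgeR, -0.0026 with DESeq2, -0.074 with array weights and -0.25 without libraries 10 and 12, where Epcam gave -0.071 and Zeb2 0.77. The Cdh2 age difference in KO-TRAMP was 0.36 with array weights. Leaving out libraries 5 and 6, 17 and 18, or 10 and 12 left only library 4, 16 or 11 of that group.

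Leaving out 1 library turned the sign for these ranges. In KO-TRAMP at 10 weeks they were -0.18 to 1.97 for Cdh2, -0.19 to 0.28 for Zeb1 and -0.45 to 0.60 for Snai2, and in A537T-TRAMP at 10 weeks -0.17 to 0.54 for Snai2. In KO-TRAMP at 30 weeks they were -0.76 to 2.17 for Cdh2, -0.11 to 0.12 for Zeb1 and -0.43 to 0.49 for Zeb2. In A537T-TRAMP at 30 weeks they were -0.15 to 0.13 for Cdh1, -0.30 to 0.027 for Fn1 and -0.76 to 0.16 for Zeb2. For the age difference in KO-TRAMP they were -0.63 to 0.070 for Cdh1, -1.66 to 1.27 for Cdh2, -0.28 to 0.19 for Zeb1, -0.89 to 0.032 for Zeb2 and -0.042 to 1.01 for Snai2, and in A537T-TRAMP -0.47 to 0.0087 for Vim. No paired analysis was possible because the columns carry no replicate numbers shared between groups. Depth of 9380174 to 14830104 reads left Snai1 and Twist1 with at most 14 reads per library.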
